A study of Mus musculus with 16 samples.

Results

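Aerocytes are one of the capillary endothelial cell types of the lung alveolus, and 7 genes that mark them were followed through endothelial cells (ECs) sorted from young and aged mouse lungs, with and without bleomycin. The genes are Car4, Chst1, Emp2, Tbx2, Fibin, Prx and Nckap5. They were taken by gene name from the 43346 genes of the deposited table, and each name matched 1 protein-coding gene. The choice was made with earlier results of these data known. All 7 passed the filter on low counts in every comparison.

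RNA sequencing was used to ask how age and lung injury change gene expression in ECs. Every mouse was of the FVB strain and carried a Col1a1-GFP transgene, a reporter of collagen-producing cells. Lungs were taken 30 days after bleomycin (about 1 U per kg) or PBS was given into the airway, and cells positive for CD31 and negative for CD45, EpCAM and GFP were sorted. Young Sham (2 months, PBS, n = 5), Aged Sham (18 months, PBS, n = 3), Young Bleo (2 months, bleomycin, n = 4) and Aged Bleo (18 months, bleomycin, n = 4) make up the 16 libraries.

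Bleomycin is a drug that injures the alveoli and leads to fibrosis. The sort takes all lung ECs together (capillary, arterial, venous and lymphatic), so each value is an average over a mixture. The study counts each library as a mouse. Its colony held both sexes according to the methods, and the labels give no sex for a library. The labels name a SMART-Seq cDNA kit with a Nextera library, whereas the methods name a TruSeq kit with poly(A) selection.

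Alveolar capillaries hold aerocytes, which are large, flat and net-like cells specialised for gas exchange, and general capillary cells, which regulate vessel tone and act as progenitors in repair. Aerocytes lie close to the thin alveolar type 1 epithelial cells, and their formation depends on vascular endothelial growth factor made by that epithelium. They express Car4 at a high level together with the endothelin receptor gene Ednrb and the ligand gene Apln, and general capillary cells express the matching receptor gene Aplnr.

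Depth lay between 20.9 and 71.0 mega-counts in a library. The lowest raw count of any of the 7 genes in any library was 201 (Fibin in Young Bleo 18). All 9 pan-endothelial genes in a marker list (Pecam1, Cdh5 and Cldn5 among them) had at least 10 counts in every library, and their summed level was 762302 to 964220 normalized counts in Young Sham and 578185 to 709408 in Aged Bleo. The most abundant genes weigh most in this sum. With the 9 genes weighted equally, their mean on the log2 scale relative to Young Sham was -0.33 to -0.12 in Aged Bleo. Transcripts of macrophages, which the CD45 gate should remove, were also present. Lyz2, a lysozyme gene on the macrophage list, stood at 2724 to 4799 normalized counts in Young Sham and 6983 to 22089 in Aged Sham. It had 16608 to 50201 in Young Bleo and 22333 (Aged Bleo 5) to 161722 (Aged Bleo 1) in Aged Bleo. Normalized counts are raw counts divided by the DESeq2 size factor of the library.

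Because the 7 genes varied together across the libraries, the sequence before a RefSeq start site is shown for 3 of them. These are Car4, the most abundant, Chst1, which had the least spread in Young Sham, and Fibin, which had the largest fold change. RefSeq promoters on GRCm38.p6 (the assembly also called mm10) were found for 6 of the 7 genes, and Tbx2 had no entry in the table used. The 250 bases before the start site in that table are given 5′ to 3′ on the gene's strand. For Chst1 this start site lies inside the gene interval given below (chr2:92599707-92615250), so its whole window is within the gene. Part of the Fibin window also lies within its gene interval (chr2:110360917-110363183). Capitals mark letters of the ETS family, whose members in ECs include ERG. The letters searched were CCGGAA and AGGAAG, and GGTGTGA for T-box factors, each on both strands.
Car4 (chr11:84957504-84957753, + strand): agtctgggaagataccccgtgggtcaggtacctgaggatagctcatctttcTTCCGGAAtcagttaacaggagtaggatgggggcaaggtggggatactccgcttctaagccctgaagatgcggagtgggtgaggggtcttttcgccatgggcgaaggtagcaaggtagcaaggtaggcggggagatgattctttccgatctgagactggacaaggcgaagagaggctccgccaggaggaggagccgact
Chst1 (chr2:92600867-92601116, + strand): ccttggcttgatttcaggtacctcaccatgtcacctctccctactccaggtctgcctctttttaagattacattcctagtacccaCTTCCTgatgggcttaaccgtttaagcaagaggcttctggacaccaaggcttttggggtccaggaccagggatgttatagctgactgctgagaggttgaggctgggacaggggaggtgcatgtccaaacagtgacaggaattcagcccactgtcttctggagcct
Fibin (chr2:110362994-110363243, - strand): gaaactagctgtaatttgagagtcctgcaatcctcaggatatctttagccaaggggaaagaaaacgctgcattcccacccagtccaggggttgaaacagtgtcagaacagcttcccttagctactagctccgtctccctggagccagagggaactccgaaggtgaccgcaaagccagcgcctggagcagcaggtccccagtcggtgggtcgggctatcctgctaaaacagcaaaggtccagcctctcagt

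In the Car4 window the letters CCGGAA occurred on both strands, in overlapping matches that begin 197 and 199 bases before the start site. The Chst1 window held AGGAAG once, as its reverse complement CTTCCT, 165 bases before the RefSeq start site used, and so inside the gene interval. No searched letters were found in the Fibin window or in the windows of Emp2, Prx and Nckap5. Of 32851 promoter windows of this length in the table, 12% held CCGGAA, 29.5% held AGGAAG and 3.33% held GGTGTGA.

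Between genes, levels were compared in FPKM, which divides by gene length. Car4 was the highest of the 7 in Young Sham at 1261 ± 200 FPKM (SD, n = 5), the ninth highest of all genes in the table by that mean. Emp2 followed at 476 ± 36.5 FPKM and Tbx2 at 142 ± 13.7 FPKM. Prx stood at 72.3 ± 29.7 FPKM and Chst1 at 57.4 ± 2.66 FPKM. The Prx range of 36.6 to 103 FPKM included every Chst1 value, so the order of this pair is not set. Fibin had 24.4 ± 3.03 FPKM and Nckap5 had 4.37 ± 0.637 FPKM. No other neighbours in this order overlapped among the 5 Young Sham libraries.

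In young mice, bleomycin was followed by lower levels of all 7 genes. A gene was called when its DESeq2 adjusted p was at most 0.05 and its log2 fold change at least 0.5 in size. In Young Bleo against Young Sham, 7 of 7 were called lower, where 6.16% of all 18986 genes tested were called lower. As the 7 were chosen with earlier results of these data known, this count is a description. The median log2 fold change of the 7 was -1.82, against 0.0098 over all genes tested. In 5 of the 7 the groups did not overlap (Car4, Chst1, Emp2, Tbx2 and Fibin), and 7.03% of all genes tested were lower without overlap. Fewer aerocytes among the sorted cells and less of each transcript per aerocyte cannot be told apart in bulk RNA. By edgeR 4 of the 7 were called (4.09% of 18327 genes tested by edgeR were lower), and without Young Bleo 17, 18 or 19 DESeq2 called 4 each time, with Prx, Emp2 and Nckap5 no longer called.

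**Figure D1:**
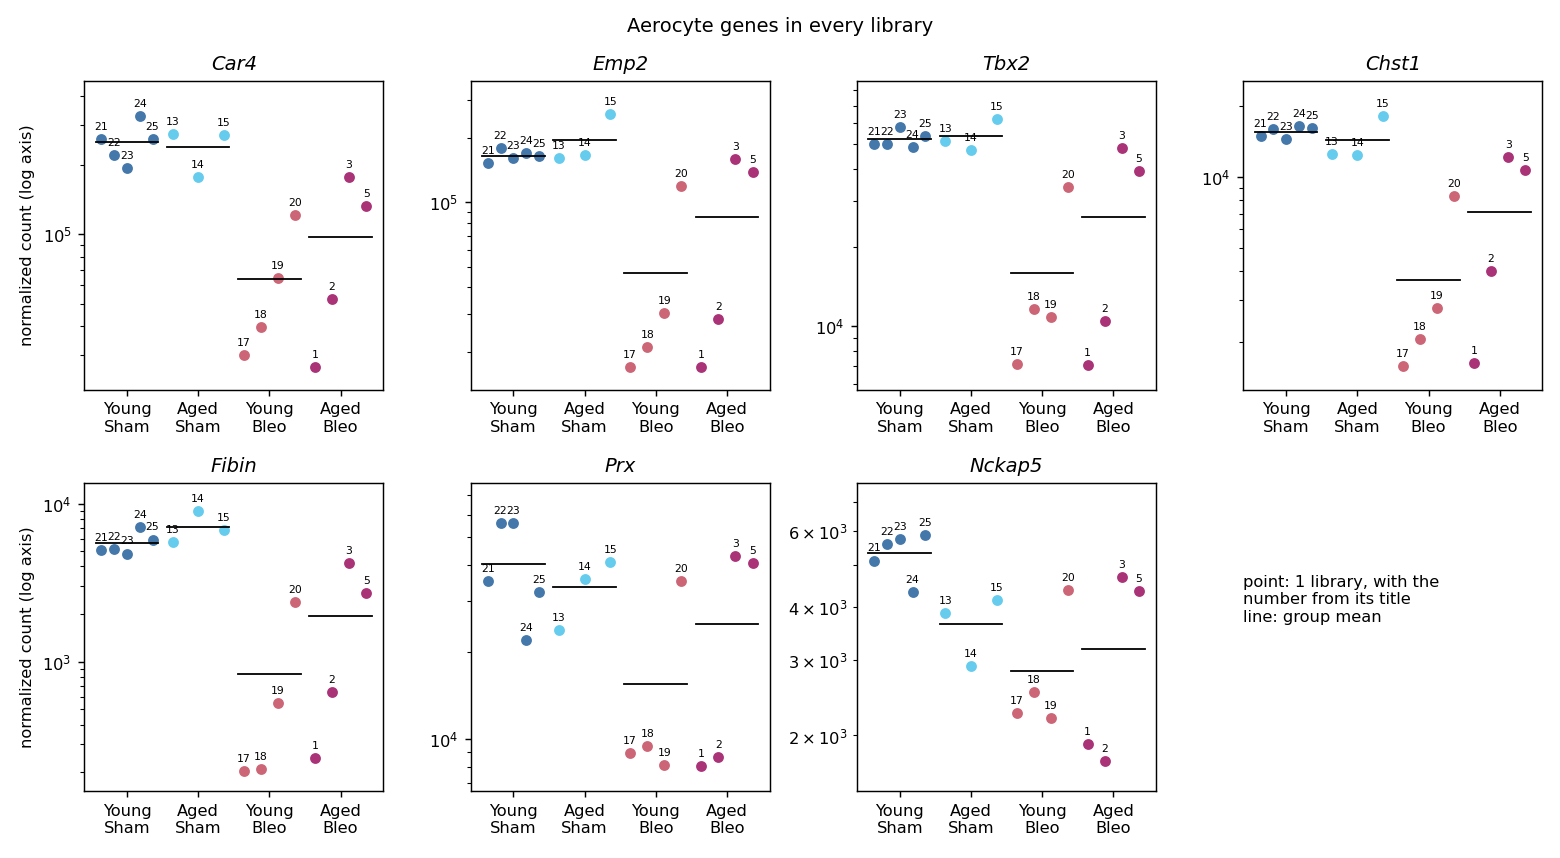
Normalized counts (log axis) of the 7 aerocyte genes in each of the 16 libraries, with a point per library, its title number above it and a line at the group mean. In every panel Young Bleo 20, Aged Bleo 3 and Aged Bleo 5 are the highest bleomycin libraries, and the other 5 lie below all sham libraries.

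Car4 (ENSMUSG00000000805, mm10 chr11:84957786-84966044) encodes a carbonic anhydrase anchored to the luminal surface of capillaries, where it interconverts CO2 and bicarbonate. Its normalized counts were 258851, 221423, 194674, 327483 and 259251 in Young Sham 21, 22, 23, 24 and 25. In Aged Sham 13, 14 and 15 they were 273824, 177074 and 271461. The sham ranges of the 2 ages overlapped (log2 fold change -0.07, 95% interval -1.02 to 0.88). Young Bleo 17, 18, 19 and 20 had 29763, 39662, 64805 and 120806. The young bleomycin libraries all lay below the lowest sham library, and the level was 3.96-fold lower (-1.98 ± 0.44 on the log2 scale, SE, DESeq2 adjusted p = 0.00025). Aged Bleo 1, 2, 3 and 5 had 26576, 52283, 177641 and 133390. All 4 lay below Young Sham, and Car4 was the single gene of the 7 called in Aged Bleo against Young Sham (-1.37 ± 0.44, adjusted p = 0.025). That call was lost by edgeR (adjusted p = 0.10) and by DESeq2 without Aged Bleo 1, Aged Bleo 2, Young Sham 21, Young Sham 24 or Young Sham 25. Aged Bleo 3 was just above Aged Sham 14, so the aged groups overlapped (-1.30 ± 0.51, adjusted p = 0.11), and without Aged Bleo 3 this comparison was called (-1.77, adjusted p = 0.0096). Tmeff2, Pmp22 and Cyp4b1 had the profiles most like Car4 (Pearson r 0.990, 0.989 and 0.986 on the log2 scale over 16 libraries).

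Chst1 (ENSMUSG00000027221, chr2:92599707-92615250) encodes a sulfotransferase that adds sulfate to galactose in carbohydrate chains. The 5 Young Sham libraries were close together at 14905, 16034, 14504, 16376 and 16052 normalized counts (libraries 21 to 25). Aged Sham 13, 14 and 15 had 12529, 12416 and 18046, and no shift with age was called (-0.12 ± 0.52, adjusted p = 0.95). Counts in Young Bleo 17, 18, 19 and 20 were 1577, 2067, 2780 and 8278. None reached a sham library, and the change was -2.08 ± 0.48 (adjusted p = 0.00039), or 4.24-fold lower. In Aged Bleo 1, 2, 3 and 5 Chst1 stood at 1624, 4010, 12117 and 10691. These values lay below both sham groups without overlap but spread 7.46-fold among themselves. The aged comparisons did not pass the test, at -1.13 ± 0.48 against Young Sham (adjusted p = 0.11) and -1.01 ± 0.55 against Aged Sham (adjusted p = 0.30). Grb14, Itga3 and Nhlrc2 were most like it (r 0.991, 0.989 and 0.989).

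Emp2 (ENSMUSG00000022505, chr16:10281749-10313968) encodes a tetraspan membrane protein that affects integrin and caveolin traffic and is also abundant in alveolar type 1 epithelium. Young Sham 21 to 25 had 152670, 179228, 161286, 169985 and 164824 normalized counts, and Aged Sham 13, 14 and 15 had 160832, 166712 and 258214. Aged Sham 15 was the highest of all libraries, and the sham groups overlapped (0.24 ± 0.65). Young Bleo 17, 18, 19 and 20 had 16923, 21065, 30327 and 119286. The first 3 lay far under the fourth, and all 4 were below Young Sham (-1.82 ± 0.59, adjusted p = 0.019, 3.53-fold lower). Without Young Bleo 20 the change was -2.86. Aged Bleo 1, 2, 3 and 5 had 16973, 28447, 159298 and 138407. Aged Bleo 3 was inside the Young Sham range, whereas all 4 were under the lowest Aged Sham library, and neither comparison passed (-0.95 ± 0.59, adjusted p = 0.35, against Young Sham and -1.19 ± 0.67, adjusted p = 0.34, against Aged Sham). Nhlrc2, Grb14 and Fam174b were most like Emp2 (r 0.991, 0.990 and 0.990). Type 1 epithelial genes moved in the same direction, with 4 of 6 in that list called lower in Young Bleo, where 6.16% of all genes tested were. The 4 were Hopx, Akap5 and Ager by the largest changes, and Clic5, which completes the count. The summed level of the list was 49847 to 62777 in Young Sham and 13546 to 32210 in Young Bleo. In Aged Sham it was 51457 to 85583 and in Aged Bleo 17290 to 51052, with none of the 6 at 0 in every library. Hopx and Clic5 held 90.6 to 98.4% of this sum in each library, so it says little of Ager, Akap5, Rtkn2 and Aqp5, and the sort removed cells positive for EpCAM. Ager, the receptor gene that is abundant in type 1 cells, had 1623 to 3254 normalized counts in Young Sham and 528 to 1710 in Young Bleo. The part of epithelial transcripts in the Emp2 values was not tested.

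Tbx2 (ENSMUSG00000000093, chr11:85832551-85841948) encodes a transcription factor of the T-box family that mostly represses its targets. It was steady in sham mice, at 50016, 49701, 57737, 48599 and 53467 normalized counts in Young Sham 21 to 25 and 51373, 47359 and 62365 in Aged Sham 13, 14 and 15. The 2 ages overlapped and differed by 0.05 ± 0.52 on the log2 scale. Young Bleo 17, 18, 19 and 20 had 7138, 11640, 10832 and 34075. All were below the sham libraries (-1.70 ± 0.47, adjusted p = 0.0044, 3.26-fold lower). Aged Bleo 1, 2, 3 and 5 had 7052, 10416, 48009 and 39326. The third of these, 48009, was just under the lowest Young Sham value and above the lowest Aged Sham value, and the change was not called (-0.99 ± 0.47, adjusted p = 0.18, against Young Sham). Without Aged Bleo 3 it was called (-1.46, adjusted p = 0.025). Against Aged Sham it was -1.04 ± 0.54 (adjusted p = 0.28). Nhlrc2, Chst2 and Grb14 had the nearest profiles (r 0.993, 0.990 and 0.988).

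Fibin (ENSMUSG00000074971, chr2:110360917-110363183) encodes a secreted protein first described in fin bud formation. Its log2 fold change was the largest of the 7 in Young Bleo against Young Sham. In Young Sham 21 to 25 it had 5077, 5148, 4833, 7096 and 5925 normalized counts, and in Aged Sham 13, 14 and 15 it had 5675, 8970 and 6764. The sham ranges overlapped (0.35 ± 0.84, adjusted p = 0.90). Young Bleo 17, 18, 19 and 20 had 203, 209, 547 and 2390, so that Young Bleo 17 was at 3.61% of the Young Sham mean and Young Bleo 20 at 42.6%. The change was -2.75 ± 0.77 (adjusted p = 0.0052), or 6.71-fold lower, and -4.13 without Young Bleo 20. Aged Bleo 1, 2, 3 and 5 had 246, 645, 4191 and 2721. They did not overlap either sham group, yet a 17.0-fold spread among the 4 went with wide intervals, and neither -1.53 ± 0.77 against Young Sham (adjusted p = 0.22) nor -1.87 ± 0.88 against Aged Sham (adjusted p = 0.21) was called. Limma voom called the first of these (-2.22, adjusted p = 0.048). Sepp1, Kitl and Crym were most like Fibin (r 0.983, 0.983 and 0.982).

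Prx (ENSMUSG00000053198, chr7:27499324-27520214) encodes periaxin, a scaffold protein known from myelinating Schwann cells. It was the most variable of the 7 in Young Sham, at 35149, 56038, 56156, 21922 and 32213 normalized counts in libraries 21 to 25. Aged Sham 13, 14 and 15 had 23849, 35916 and 41067, inside that range (-0.26 ± 0.56). In Young Bleo 17, 18 and 19 it had 8912, 9461 and 8129, but Young Bleo 20 had 35360 and overlapped the sham values. The young change was just called (-1.38 ± 0.51, adjusted p = 0.048) and was lost by edgeR (adjusted p = 0.13), by limma voom (adjusted p = 0.067), and by DESeq2 with a mean count of at least 10 (adjusted p = 0.07), with pan-endothelial size factors (adjusted p = 0.076), with only the groups compared (adjusted p = 0.10) and in 7 of the 9 fits that each left out 1 library. Aged Bleo 1, 2, 3 and 5 had 8032, 8617, 42910 and 40568, so that 2 were below every sham library and 2 were within the sham range (-0.69 ± 0.51, adjusted p = 0.47, against Young Sham and -0.43 ± 0.58, adjusted p = 0.78, against Aged Sham). Of 4 Schwann cell genes 2 could be tested in Young Bleo and neither was called, and their summed level was 203 to 894 in Young Sham, 452 to 2543 in Aged Sham, 118 to 717 in Young Bleo and 87.7 to 572 in Aged Bleo. The defining marker Sox10 was at 0 in all but Young Sham 22. Both tested genes were, like Prx, highest of the bleomycin libraries in Aged Bleo 3, Aged Bleo 5 and Young Bleo 20. Mbp, a myelin gene named after its values were seen, had 148, 59.7, 418 and 422 normalized counts in Aged Bleo 1, 2, 3 and 5 and 153, 142, 91.5 and 448 in Young Bleo 17 to 20. The part of Schwann cell transcripts in the Prx values was not tested. The gene Gm15541 overlaps Prx and had the most similar profile (r 0.991), followed by Lrrc16a and Tbx3 (r 0.987 and 0.981). The counting rule for strand is not given in the sources used here, so reads of Prx and Gm15541 may have been exchanged. Gm15541 had 2205 ± 975 normalized counts in Young Sham against 40296 ± 15238 for Prx.

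Nckap5 (ENSMUSG00000049690, chr1:125913620-126830799) encodes a protein named for its binding to the adaptor NCK. Its change was the smallest of the 7 in Young Bleo against Young Sham. Young Sham 21 to 25 had 5123, 5601, 5762, 4329 and 5861 normalized counts, and Aged Sham 13, 14 and 15 had 3873, 2908 and 4145. All Aged Sham values lay under all Young Sham values, but the difference was not called (-0.55 ± 0.32, adjusted p = 0.43), and 3.78% of all genes tested were lower without overlap here. With only the sham libraries in the model it was called (-0.55, adjusted p = 0.04). Young Bleo 17, 18, 19 and 20 had 2254, 2526, 2193 and 4362. The last lay just inside the Young Sham range, and the change was -0.91 ± 0.29 (adjusted p = 0.018), or 1.88-fold lower. Aged Bleo 1, 2, 3 and 5 had 1914, 1748, 4694 and 4352. Against Young Sham the change did not pass (-0.75 ± 0.29, adjusted p = 0.082), although it was called without Aged Bleo 3 (-0.998, adjusted p = 0.011) and without Aged Bleo 5 (-0.94, adjusted p = 0.03). Against Aged Sham it was -0.20 ± 0.34. Dgkz, Rasgef1a and Stard8 were most like it (r 0.969, 0.964 and 0.960). The gene spans a long interval in which 4 other annotated genes lie, and reads may have been exchanged with those too.

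Between the sham groups no change was called in the 7 genes with all libraries in the model, and Nckap5 was called when only the sham libraries were in it (adjusted p = 0.04). In Aged Sham against Young Sham, 0 of 7 were called by DESeq2, none had an unadjusted p under 0.05, and edgeR and limma also called 0. Of all 18515 genes tested, 3.36% were called in either direction (2.24% higher and 1.12% lower), and edgeR called 0.164% lower. The 7 estimates ran from -0.55 (Nckap5) to 0.35 (Fibin), with a median of -0.07 against 0.02 over all genes. Their intervals are wide with 3 Aged Sham libraries, for example -0.96 to 1.06 for Tbx2. When size factors were taken from the pan-endothelial genes, Car4 turned to 0.06 and Chst1 to 0.00087, while the median of all genes moved up by 0.12.

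In aged mice the bleomycin libraries disagreed among themselves. In Aged Bleo against Young Sham, 1 of 7 (Car4) was called lower, where 3.14% of all genes tested were lower, of 9.73% called in either direction. At an unadjusted p under 0.05 there were 5 (Car4, Fibin, Tbx2, Chst1 and Nckap5), and edgeR called 0 (1.49% of its genes were lower, and 3 of the 7 had an unadjusted p under 0.05). In 4 of the 7 the groups did not overlap (Car4, Chst1, Tbx2 and Fibin; 4.94% of all genes tested). The median was -0.99 against 0.02 over all genes. The count rose to 3 without Aged Bleo 3 and to 2 without Aged Bleo 5, and fell to 0 without Aged Bleo 1 or Aged Bleo 2, and without Young Sham 21, Young Sham 24 or Young Sham 25.

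Against their own age group, in Aged Bleo against Aged Sham, 0 of 7 were called by DESeq2 and by edgeR, where DESeq2 called 2.45% of all genes lower and 3.4% higher (5.85% in all) and edgeR called 0.3% lower. An unadjusted p under 0.05 was found for 2 (Car4 and Fibin) with both tools, and for 5 with limma voom. Chst1, Emp2 and Fibin did not overlap between these groups (6.14% of all genes tested). The median was -1.04 against 0.0061 over all genes. These estimates and those against Young Sham share the Aged Bleo libraries.

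**Figure D2:**
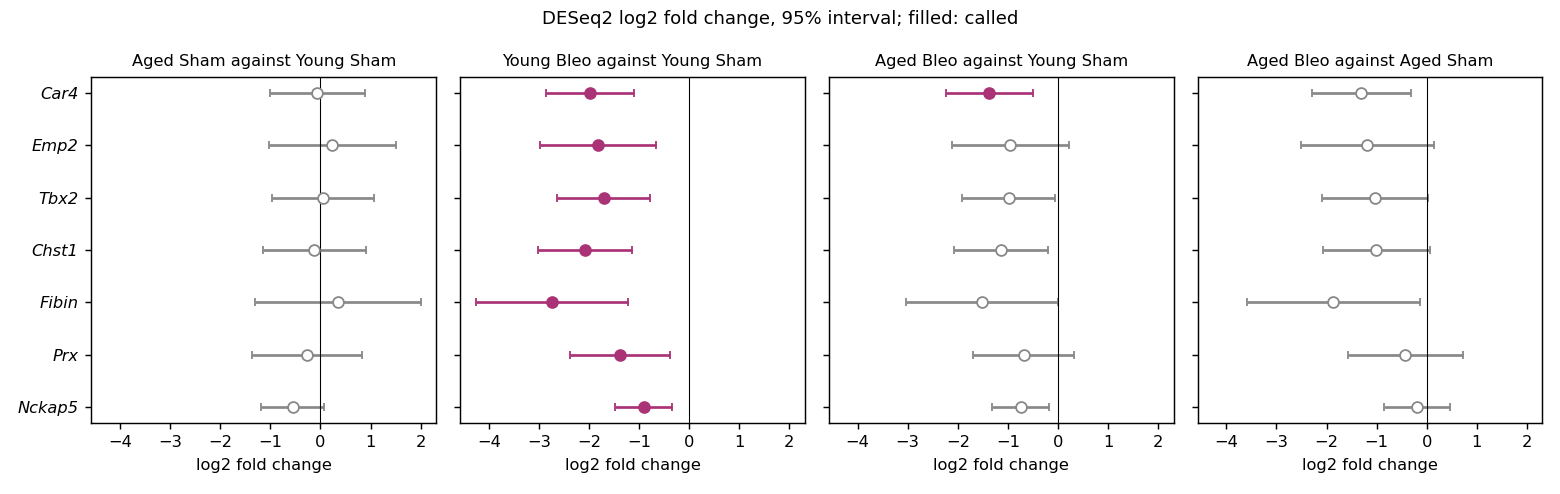
DESeq2 log2 fold change (horizontal axis) of the 7 genes in 4 comparisons, with 95% intervals and filled points for called genes. All 7 intervals in Young Bleo against Young Sham lie below 0, and Car4 is the one filled point in the other 3 panels.

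The bleomycin response was not shown to differ between ages. The difference of the responses, aged minus young, was positive in all 7, from 0.63 ± 0.90 (Emp2) to 1.07 ± 0.73 (Chst1), and 0 of 7 were called (0.387% of 19906 genes tested were, 0.141% higher and 0.246% lower, and edgeR called 0.00546% lower). No gene of the 7 had an unadjusted p under 0.05 with DESeq2, edgeR or limma, and every interval included 0, the widest being -1.42 to 3.17 for Fibin. Young and aged bleomycin libraries compared directly gave 0.16 to 1.22 on the log2 scale with 0 of 7 called by each of these tools and none at an unadjusted p under 0.05, where 0.99% of all genes tested were called by DESeq2 (0.585% higher and 0.406% lower) and edgeR called 0.00546% lower. The groups overlapped for all 7. Of all genes tested, 2.22% were lower without overlap, and the share higher without overlap, the direction of the 7 estimates, was not computed. Without Young Bleo 20, Fibin (2.61, adjusted p = 0.018), Chst1 (1.73, adjusted p = 0.0099) and Emp2 (1.91, adjusted p = 0.017) were called higher in Aged Bleo.

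Within each bleomycin group the libraries differed widely, and the same libraries were high for each of the 7 genes. Young Bleo 20, the highest of its group, stood between 42.6% (Fibin) and 87.8% (Prx) of the Young Sham mean. This was seen after the values were inspected and is given as a description. As a percentage of the Young Sham mean, Emp2 was at 10.2, 17.2, 96.2 and 83.6% in Aged Bleo 1, 2, 3 and 5. In Young Bleo 17, 18, 19 and 20 it was at 10.2, 12.7, 18.3 and 72.0%. Prx reached 106% in Aged Bleo 3 and 101% in Aged Bleo 5, whereas Car4 in the same libraries was at 70.4 and 52.9%. For all 7 genes the 3 highest of the 8 bleomycin libraries were Aged Bleo 3, Aged Bleo 5 and Young Bleo 20. Of all 18986 genes tested in young mice, 10.2% had the same 3 libraries highest and 10.2% had them lowest. The third highest value exceeded the fourth by 1.72-fold (Nckap5) to 3.93-fold (Emp2).

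The mean of the 7 genes on the log2 scale, relative to Young Sham, was -2.98, -2.27, -0.20 and -0.47 in Aged Bleo 1, 2, 3 and 5, and -2.94, -2.64, -2.28 and -0.66 in Young Bleo 17 to 20. Other lists differed between the same libraries. For 5 cell cycle genes the mean was 2.43, 2.46, 0.40 and 0.67 in Aged Bleo and 1.74, 2.94, 2.20 and 1.10 in Young Bleo, in the same order. It was lowest in Aged Bleo 3, Aged Bleo 5 and Young Bleo 20. The 8 arterial genes ranged from 0.31 (Aged Bleo 3) to 1.35 (Aged Bleo 1), and their lowest Young Bleo library was Young Bleo 20 at 0.85. For 6 venous genes the mean was 0.97 to 1.48 in Aged Bleo and 0.77 to 1.19 in Young Bleo, with -0.08 to 0.12 in Young Sham and 0.40 to 1.28 in Aged Sham. For 6 lymphatic genes it was 0.27 to 0.82 in Aged Bleo and 0.57 to 1.54 in Young Bleo, with -0.39 to 0.28 in Young Sham and -0.16 to 0.20 in Aged Sham. For 6 type 1 epithelial genes it was -2.15, -2.68, -0.93 and -0.81, then -2.37, -1.72, -2.26 and -0.87. It was least reduced in the 3 libraries in which the aerocyte genes were least reduced. Pericyte and smooth muscle genes were lower in young bleomycin mice as well, with 3 of 5 called (Notch3 at -2.58 ± 0.68, Pdgfrb at -2.29 ± 0.75 and Acta2 at -1.08 ± 0.34), where 6.16% of all genes tested were lower. In Aged Bleo 5 of 5 were called lower against Young Sham (3.14% of all genes) and 1 of 5 against Aged Sham (2.45%). Aged Sham itself had 1 of 5 called lower than Young Sham (1.12%), so the 5 of 5 mixes age with bleomycin. The mean of the pericyte and smooth muscle genes was -3.19, -4.86, -2.30 and -2.26 in Aged Bleo and -2.28, -2.51, -1.69 and -0.92 in Young Bleo. The summed level was 6831 to 17133 in Young Sham, 3889.5 to 7319.5 in Aged Sham, 2417 to 6224 in Young Bleo and 1680 to 2828 in Aged Bleo, with none of the 5 at 0 in every library. Mesothelial genes were higher than in Young Sham, with 4 of 4 called in Young Bleo (7.29% of all genes tested were higher) and 3 of 4 in Aged Bleo (6.58%). In Aged Sham 3 of 4 were also called higher (2.24%), and in Aged Bleo against Aged Sham 0 of 4 were called. Their sum was 0.978 to 270.2 in Young Sham, 727 to 3087 in Aged Sham, 1141 to 3426 in Young Bleo and 153 to 1247 in Aged Bleo. The part of these lists in the aerocyte values was not tested.

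For 8 macrophage genes the mean was 5.63, 4.65, 2.40 and 2.96 in Aged Bleo and 4.07, 3.55, 2.25 and 2.00 in Young Bleo, all above the highest Young Sham library at 0.63. In Young Bleo 4 of 8 macrophage genes were called higher (7.29% of all genes tested were), among them Itgam, Cd68 (4.60 ± 0.69) and Lyz2 (3.07 ± 0.47). Itgam had 0 to 2.05 normalized counts in Young Sham and 7.71 to 165 in Young Bleo. In Aged Bleo against Young Sham 5 of 8 were called higher (6.58% of all genes tested). The summed level of the list was 3278 to 5316 in Young Sham 17760 to 53998 in Young Bleo, 7472 to 23053 in Aged Sham and 25256 to 173340 in Aged Bleo, with no gene of it at 0 in every library. Lyz2 alone held 83.1 to 95.8% of this sum in each library. By the sum, Young Bleo 18 and Aged Bleo 1 were highest in their groups, and without both 6 of the 7 aerocyte genes were called in Young Bleo (all but Prx, at -1.20, adjusted p = 0.12). By the mean of the list, which weights its genes equally, Young Bleo 17 and Aged Bleo 1 were highest, and without both 5 of the 7 were called (all but Prx, adjusted p = 0.13, and Nckap5, adjusted p = 0.06). Leaving out Young Bleo 17 or Young Bleo 18 alone gave 4 of 7. No gene of the 7 was called in Aged Bleo against Young Sham by DESeq2 without either pair, Car4 being at -1.06 both times. The part of macrophage transcripts in the values of the 7 genes was not tested further.

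**Figure D3:**
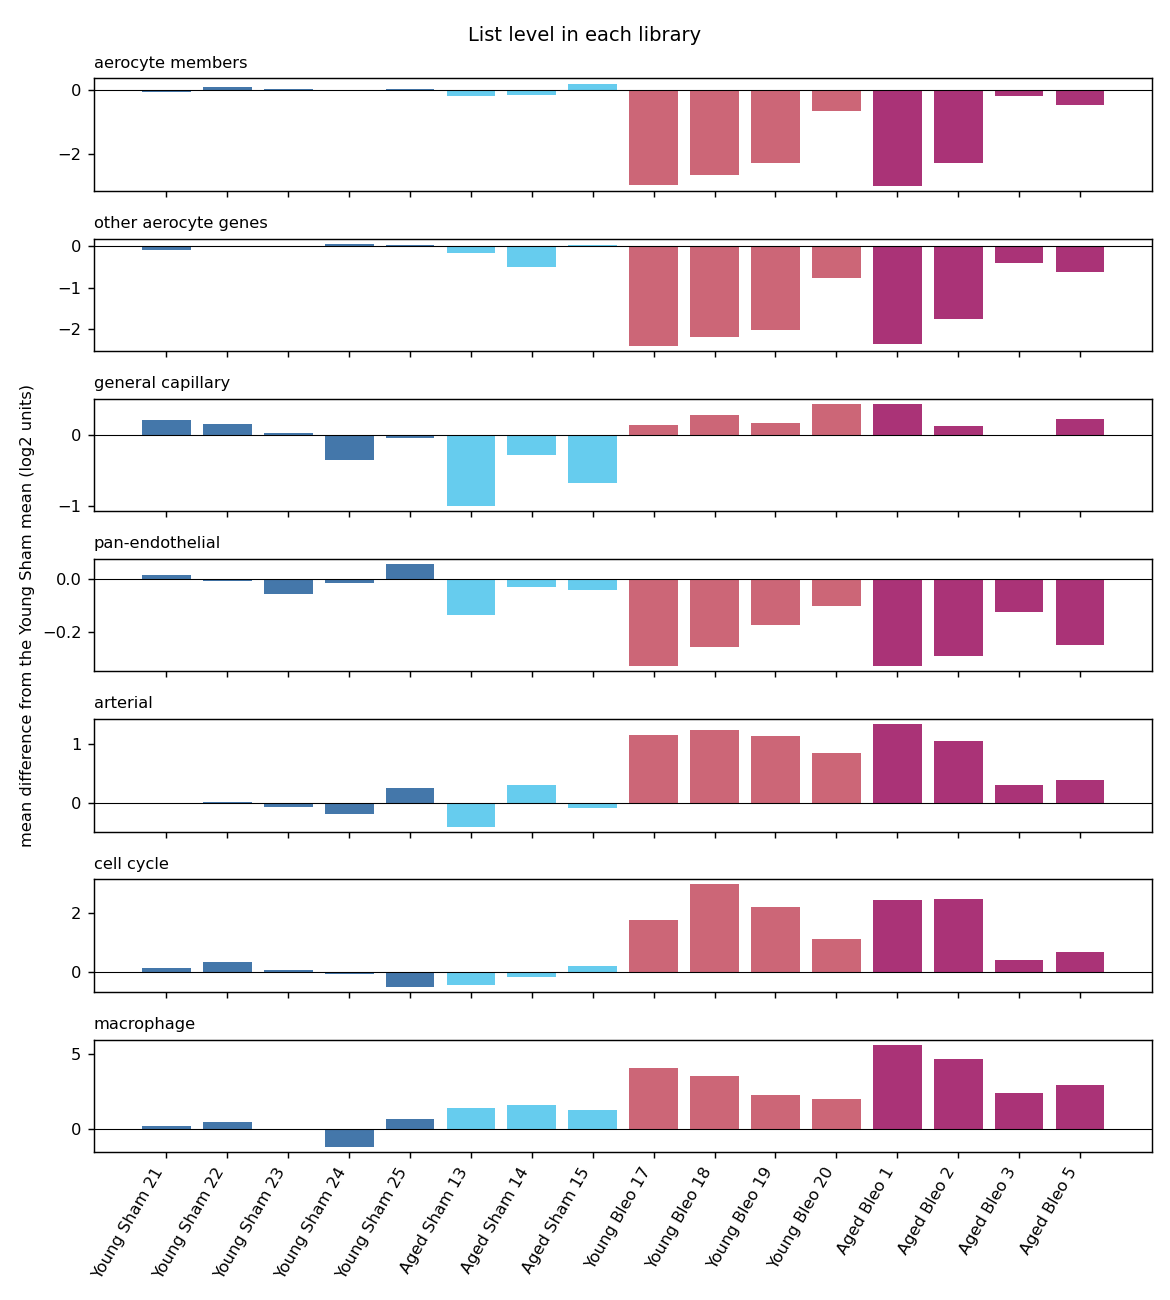
Mean difference from the Young Sham mean (log2 units, vertical axis, with its own scale in each panel) of 7 gene lists in each of the 16 libraries, coloured by group. The aerocyte bars are shortest among bleomycin libraries in Young Bleo 20, Aged Bleo 3 and Aged Bleo 5, where the cell cycle bars are also shortest.

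As a list, general capillary genes did not follow the aerocyte genes. In Young Bleo, 2 of 9 were called higher (7.29% of all genes tested were) and none lower (6.16%). The 2 were Gpihbp1 (1.03 ± 0.29), which anchors lipoprotein lipase, and Cd93 (0.76 ± 0.25), a membrane receptor of ECs. The median of the list was 0.40. In Aged Bleo 2 of 9 were called higher against Young Sham (6.58% of all genes tested) and 4 of 9 against Aged Sham (3.4%), with none lower. Aged Bleo 3, Aged Bleo 5 and Young Bleo 20 were the highest bleomycin libraries for 1 of the 9, Glp1r, and for 10.2% of all genes tested. In Aged Sham 3 of 9 were called lower, the receptor genes Aplnr (-1.34 ± 0.28), Kit (-1.29 ± 0.24) and Tek (-0.79 ± 0.20), where 1.12% of all genes tested were lower. Of the pan-endothelial genes 2 of 9 were called lower in Young Bleo (6.16% of all genes tested were), Cldn5 (-0.92 ± 0.17) and Ramp2 (-0.76 ± 0.20). One of the 9, Erg, was called higher (0.69 ± 0.15), where 7.29% of all genes tested were. The median of the pan-endothelial list was -0.36, against -1.82 for the aerocyte genes.

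A further list of 10 genes known in aerocytes gave the same direction in young mice. It too was chosen with earlier results of these data known, so it adds no independent evidence. Sostdc1 had 0 counts in every library, and all 9 others were called lower in Young Bleo, with a median of -1.69. Of all genes tested, 6.16% were called lower. Cdkn2b, a cell cycle inhibitor, changed most (-2.74 ± 0.71), followed by Ednrb, the endothelin receptor (-2.58 ± 0.69), Rprml (-2.03 ± 0.43) and Apln, the ligand of Aplnr (-1.90 ± 0.34). Hpgd, which degrades prostaglandins, was at -1.69 ± 0.28 and Kdr, the main receptor of vascular endothelial growth factor, at -1.64 ± 0.40. Kitl, the ligand of Kit, was at -1.58 ± 0.38, Sirpa at -1.45 ± 0.41 and Igfbp7 at -0.82 ± 0.22. Groups did not overlap for any of the 9, and 7.03% of all genes tested were lower without overlap.

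Ednrb had 44861 to 56553 normalized counts in Young Sham, 3333, 3159, 3962 and 23573 in Young Bleo 17, 18, 19 and 20, and 2561, 3533, 27324 and 27177 in Aged Bleo 1, 2, 3 and 5. Young Bleo 20, Aged Bleo 3 and Aged Bleo 5 were the highest bleomycin libraries for 7 of the 9, and for 10.2% of all genes tested. In Aged Bleo against Young Sham 4 of 9 were called lower (Kdr, Rprml, Apln and Igfbp7), Igfbp7 with the smallest adjusted p (0.00014). Of all genes tested, 3.14% were lower there. In Aged Bleo against Aged Sham Igfbp7 alone was called (-1.05 ± 0.25, adjusted p = 0.0017), where 2.45% of all genes tested were lower. Igfbp7 also tracked the 7 genes least, with r of 0.787 over 16 libraries, against 0.898 to 0.991 for the other 8. Hpgd was the one gene of the list called between bleomycin groups, higher in Aged Bleo than in Young Bleo (1.13 ± 0.29, adjusted p = 0.018). Of all genes tested, 0.585% were higher there.

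Close relatives of the 7 genes did not all move alike. Of 16 genes from the same families, 5 were called lower and 2 higher in Young Bleo, against 6.16% and 7.29% of all genes tested. Chst2, another sulfotransferase, fell by 2.28 on the log2 scale, Pmp22, a membrane protein related to Emp2, fell by 2.00 and Tbx4 fell by 1.95. The others called were Tbx3 (-1.42 ± 0.40), Car2 (-0.70 ± 0.21), Car14 (0.95 ± 0.23) and Ahnak (0.93 ± 0.23), which are named because they complete the count. Car14, a membrane carbonic anhydrase, had 3959 to 5267 normalized counts in Young Sham and 6790 to 11161 in Young Bleo, opposite in direction to Car4. Chst7 was the one relative called with age in sham mice (-1.09 ± 0.22, adjusted p = 0.00020), and in Young Bleo it was at 0.18 ± 0.20 and was not called.

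**Figure D4:**
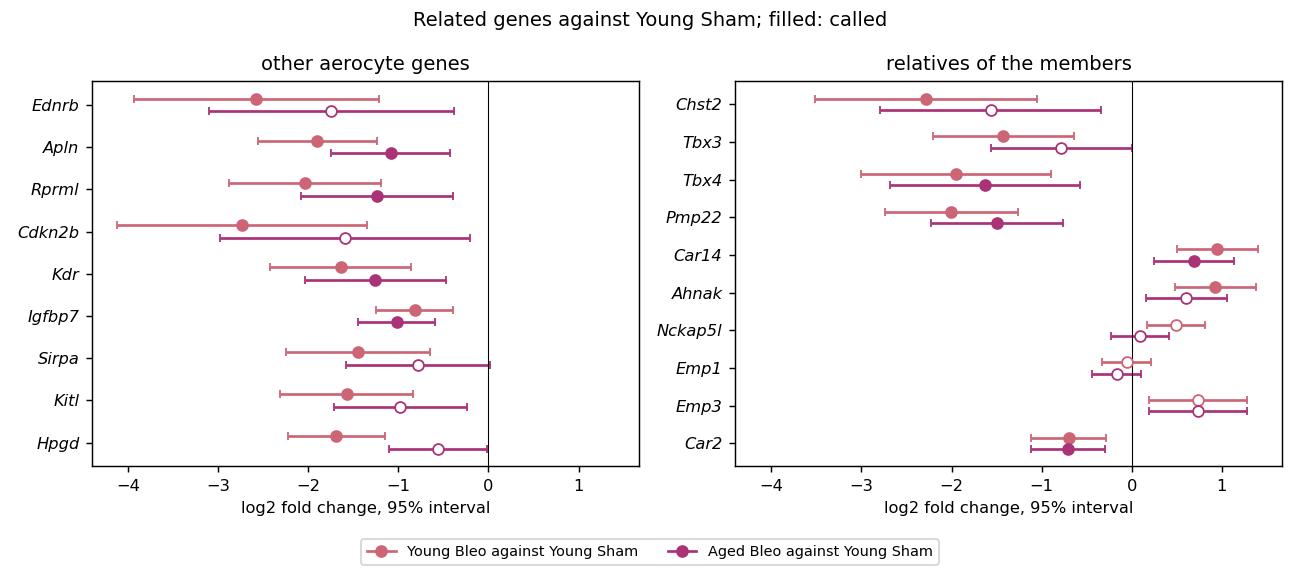
DESeq2 log2 fold changes against Young Sham with 95% intervals for 9 other aerocyte genes (left) and 10 relatives of the 7 genes (right), in Young Bleo and Aged Bleo, with filled points for called genes. All 9 aerocyte genes are filled in Young Bleo, and the relatives spread to both sides of 0.

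Among themselves the 7 genes were closely related across the 16 libraries, with Pearson r of 0.801 to 0.991 over 21 pairs (median 0.929). After group means were taken out r was 0.713 to 0.985. These libraries share groups and size factors, and the values are descriptions. Of 13767 other genes with a mean of at least 50 normalized counts, those nearest to the mean profile of the 7 were Slc22a23, Chst2, Itga3, Ednrb, Nhlrc2, Trib2, Tmcc2, Cyp4b1, Nkd1 and Gnao1 (r 0.989 to 0.995). Because they were picked for likeness over the same libraries, their changes with bleomycin are fixed by the choice and are not tested here. Slc22a23, a gene of the organic ion transporter family, had 7392 ± 1087 normalized counts in Young Sham and 1660 ± 1876 in Young Bleo. Cyp4b1, a cytochrome P450 gene, had 190015 ± 28328 and 26796 ± 28487. Their SDs in Young Bleo were larger than the means, as a single library lay far above the others.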

How the data were processed

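The authors aligned paired-end reads to mm10 with STAR 2.5.2b and counted them per gene with featureCounts of Subread, per the labels. The deposited table holds a raw count and an FPKM value per gene and library. FPKM was made by the authors from the counts, gene length and a library total. The annotation release, strand setting and rule for multi-mapped reads are not given in the sources used here. No sequencing batch is labelled. The study's methods list RNA integrity numbers by group, with lower ranges in the sham groups than in the bleomycin groups and the lowest in Aged Sham. The part of RNA integrity in the values was not tested.

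Counts of all 16 libraries entered a single DESeq2 1.42.0 model (R 4.3.3) with group as its term, unshrunken Wald tests and Benjamini-Hochberg adjustment over all genes tested. DESeq2 and the thresholds (adjusted p of 0.05, log2 fold change of 0.5) follow the study's methods. Errors beside log2 fold changes are SE, and those beside levels are SD. Total counts were 20.9 to 71.0 mega-counts, and intervals cover the spread between libraries. The fit was tested on simulated counts.

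Alternatives were edgeR 4.0.16 quasi-likelihood, limma 3.58.1 (voom, and log2(FPKM + 0.1) or + 1), a mean count of at least 10, size factors from pan-endothelial genes, only the groups compared, and each library left out. Alternatives without the libraries highest in macrophage transcripts, by the sum (Young Bleo 18 and Aged Bleo 1) or the mean of the list (Young Bleo 17 and Aged Bleo 1), were chosen after seeing the data. Lists gave counts and medians, with no set test. Named genes were the 7, all 10 further aerocyte genes, up to 3 called genes per other list with the largest change, and the genes most alike in profile (Pearson r of log2(normalized count + 1)). The genes and lists were chosen with earlier results of these data known.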

Additional observations from a re-analysis of the deposited data

Results flagged for a closer look

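Of 21 sets tested (7 genes in the 3 groups of 4 or 5 libraries), 5 held a library whose gap to the next was large for the group's range by Dixon's criterion, which chance gives in about 1 of 20. All 5 were Young Bleo 20, on the high side. The height of this library had already been seen in the values, so the criterion describes it and adds no independent evidence. It had 2390 normalized counts of Fibin, where the other Young Bleo libraries had 203 to 547, and 34075 of Tbx2, where the others had 7138 to 11640. For Prx it had 35360 against 8129 to 9461. For Emp2 it had 119286 against 16923 to 30327, and for Nckap5 4362 against 2193 to 2526. The 7 genes move together, so these are not 5 independent results. The labels and methods used here name no difference in the handling of Young Bleo 20, and the cause was not tested.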

How the results depend on the processing

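No paired analysis was possible because the library numbers in the titles do not repeat between groups. The number of the 7 genes called in Young Bleo against Young Sham was 7 with DESeq2, 4 with edgeR, 6 with limma voom, 3 with limma on log2(FPKM + 0.1) and 3 with a pseudocount of 1, and 4 to 7 when each library was left out. In Aged Bleo against Young Sham it was 1 with DESeq2, 0 with edgeR, 2 with limma voom, 0 and 0 with limma on FPKM at either pseudocount, 0 without Young Bleo 18 and Aged Bleo 1 and 0 without Young Bleo 17 and Aged Bleo 1 (both chosen after seeing the data), and 0 to 3 with each library left out. Leaving out libraries gave 0 to 1 in Aged Bleo against Aged Sham and 0 to 3 in Aged Bleo against Young Bleo. Aged Sham against Young Sham gave 1 with only the groups compared and 0 otherwise, and the difference of the responses gave 0 in every setting run.

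Every log2 fold change against Young Sham in either bleomycin group stayed negative in all settings run. Changes of sign were limited to values near 0. In Aged Sham against Young Sham, Tbx2 turned to -0.09 with limma on FPKM at either pseudocount (-0.0932 and -0.0925), and pan-endothelial size factors turned Car4 to 0.0636 and Chst1 to 0.00087. Leaving out single libraries gave ranges there of -0.17 to 0.11 for Car4 (0.11 without Aged Sham 14 and 0.05 without Young Sham 24), -0.0729 to 0.13 for Tbx2 and -0.0165 to 0.36 for Emp2 (the negative ends without Aged Sham 15). For Nckap5 they were -0.45 to 0.0039 in Aged Bleo against Aged Sham (positive without Aged Bleo 2) and -0.0848 to 0.45 in Aged Bleo against Young Bleo (-0.0848 without Aged Bleo 3 and -0.02 without Aged Bleo 5). The causes were not tested. Pan-endothelial scaling moved the median log2 fold change of all genes up by 0.31 for Young Bleo against Young Sham and by 0.29 for Aged Bleo, and with it 5 of 7 were called in Young Bleo.

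With 3 to 5 libraries per group, and bleomycin libraries that differ up to 17.0-fold in Fibin, intervals are wide, and a comparison that was not called is not shown to be without change. Counting error is small beside this spread.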
